A study of Mus musculus with 9 samples.

Results

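Oral vanillin given on top of imiquimod cream was compared with imiquimod cream alone, by microarray, in female BALB/c mice. The comparison took the 3 arrays of mice given both agents against the 3 arrays of mice given imiquimod, which is 6 of the 9 arrays in the series, and all 20377 of 26423 probes that carry 1 gene symbol. These probes stand for 17742 genes. Mice of both groups had imiquimod on the shaved back daily for 7 days, and those called the vanillin group here also took 100 mg/kg of vanillin by mouth. A mock group of 3 arrays, from mice given Vaseline cream for the same time, shows the level without imiquimod. No array of vanillin without imiquimod was analysed here, and an oral vehicle in the other groups is not given in the sources used here. Nothing in the labels ties each array of a group to a mouse of its own, so every p-value rests on differences among these arrays that may be technical. Array number limits the precision of every value.

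The tissue label names skin, whereas the extraction text names muscle. Keratins of basal and suprabasal epidermis were among the bright probes, with log2 intensities of 16.61 ± 0.03 for Krt5 and 18.54 ± 0.06 for Krt10 on the imiquimod arrays (mean ± SD, n = 3 arrays, as for all group means). Muscle genes were bright as well, with 15.60 ± 0.03 for the creatine kinase gene Ckm and 16.33 ± 0.01 for skeletal actin Acta1. The Krt5 difference between the groups was not called, except without vanillin replicate 2 (adjusted p down to 0.0466). A lower level of a cell type's genes in such bulk RNA can mean fewer of those cells or less RNA per cell, which cannot be told apart.

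Imiquimod activates toll-like receptor 7 on dendritic cells and is used to induce psoriasis-like inflammation in mice. In the usual account of this model, dendritic cells release interleukin-23, which drives T cells to make interleukin-17 and interleukin-22, and keratinocytes answer with chemokines, antimicrobial proteins and thickening of the epidermis. Neutrophils follow the CXC chemokines into the skin. Vanillin, the main aroma compound of vanilla, is a phenolic aldehyde of the vanilloid group, to which the TRPV1 agonist capsaicin also belongs, and aldehyde oxidase and aldehyde dehydrogenases oxidize it to vanillic acid. The series title points to the axis of interleukins 23 and 17.

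Vanillin arrays differed from imiquimod arrays over much of the genome, mostly by small amounts. With 1 probe a gene, the brightest, 7591 of 17742 genes were called at an adjusted p under 0.05 (limma, Benjamini-Hochberg over all probes), which is 42.8%. Of these, 4651 were higher with vanillin (26.2% of all genes) and 2940 lower (16.6%). Large changes went the other way round, since 232 genes (1.31%) were called and at least 2-fold higher while 549 (3.09%) were called and at least 2-fold lower. The imiquimod mean lay above mock in 542 of the 549 falls and below mock in 209 of the 232 rises. Vanillin means lay between the other 2 group means in 354 of the falls and 104 of the rises. They lay below both in 195 falls and above both in 128 rises. The imiquimod arrays enter both differences, so these counts are not independent of the selection. The median change of all genes was 0.06 on the log2 scale, the middle 90% lay between -0.86 and 0.77, and the median standard error was 0.13. In 62.0% of genes the 3 vanillin arrays did not overlap the 3 imiquimod arrays. The spread differed between the groups, with a median probe SD of 0.0792 on the imiquimod arrays and 0.170 on the vanillin arrays. Without imiquimod replicate 1 the genes called numbered 4788, and without imiquimod replicate 3 they numbered 4547. Changes below are log2 differences of vanillin minus imiquimod, with the standard error of the fit after ±. A list of genes is given by how many of its measured members were called in each direction, and where leaving out 1 array moved such a count by more than 1.5 times, the count without that array stands in parentheses. Every list count is to be read beside the shares of all genes, 26.2% higher and 16.6% lower. Counts near those shares do not set a list apart.

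With predicted genes, clone names and microRNAs passed over, the largest rise among genes above the lowest intensities was that of Cxcl2. This chemokine draws neutrophils through the receptor Cxcr2. Its relatives Cxcl1 and Cxcl3, which act through the same receptor, and the CC chemokines Ccl3 and Ccl4, which attract monocytes and other leukocytes, were called higher too. The promoters of the 3 CXC genes are shown because these neighbours on 1 chromosome were all called higher. Each sequence is the 250 bases before the start of the gene in RefSeq (assembly GRCm38.p6, plus strand), with a site that matches the NF-kB motif in capitals.
Cxcl2 (chr5:90903649-90903898): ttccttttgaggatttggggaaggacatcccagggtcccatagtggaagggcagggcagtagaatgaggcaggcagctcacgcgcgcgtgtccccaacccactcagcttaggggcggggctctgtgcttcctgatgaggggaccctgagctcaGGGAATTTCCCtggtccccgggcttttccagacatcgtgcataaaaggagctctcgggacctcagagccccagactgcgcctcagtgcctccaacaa
Cxcl1 (chr5:90890995-90891244): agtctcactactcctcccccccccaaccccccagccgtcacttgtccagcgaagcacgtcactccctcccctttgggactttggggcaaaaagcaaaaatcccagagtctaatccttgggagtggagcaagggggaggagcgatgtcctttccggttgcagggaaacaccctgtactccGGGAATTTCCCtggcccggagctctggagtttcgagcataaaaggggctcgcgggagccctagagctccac
Cxcl3 (chr5:90785851-90786100): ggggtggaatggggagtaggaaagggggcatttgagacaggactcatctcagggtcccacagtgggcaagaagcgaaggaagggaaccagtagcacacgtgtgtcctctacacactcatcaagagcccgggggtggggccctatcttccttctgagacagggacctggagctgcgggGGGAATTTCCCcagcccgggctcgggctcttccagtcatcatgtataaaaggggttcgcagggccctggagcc

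All 3 promoters hold the same 11 letters, GGGAATTTCCC, which match the motif on both strands with overlapping ends. They span bases -97 to -87 before the start in Cxcl2, -71 to -61 in Cxcl1 and -73 to -63 in Cxcl3. The NF-kB motif was searched on both strands of 27025 promoters of the same length, and 3.75% hold a match. The Ccl3 promoter holds no match to it or to the AP-1 (TGANTCA), CRE (TGACGTCA) or STAT (TTCNNNGAA) letters within these 250 bases. A match is a description of letters and not a measured site. Cxcl1 and Cxcl3 were chosen for display after their values were seen.

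On the imiquimod arrays Cxcl2 read 7.17, 7.54 and 7.18, and on the vanillin arrays it read 10.59, 10.65 and 10.36. Mock arrays read 6.51, 6.23 and 5.81, so all vanillin arrays stood over 2 log2 units above every other array. The change was 3.24 ± 0.19 (SE, adjusted p = 0.000117), or 9.42-fold. Cxcl3 read 7.58, 7.49 and 7.63 with imiquimod and 8.35, 8.38 and 8.52 with vanillin, a rise of 0.85 ± 0.10 without overlap. Cxcl1 read 7.89, 7.99 and 7.95 with imiquimod and 8.53, 8.62 and 8.44 with vanillin. That change of 0.59 ± 0.17 also had no overlap (adjusted p = 0.0247), but its call was lost without vanillin replicate 1 or 2 or imiquimod replicate 1, 2 or 3 (adjusted p up to 0.0767). Csf3, the growth factor of neutrophils, rose by 0.65 ± 0.12.

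Neutrophil attractants and their growth factors gave 4 of 10 higher and 0 lower (0 at an unadjusted p under 0.05) among the measured members, beside 26.2% and 16.6% of all genes, with a median change of 0.30. All 10 changes were above 0. Several of these probes were dim, with Cxcl2 at the intensity percentile 33.9 of all probes and Cxcl5 at 28. Cxcl5, another ligand of Cxcr2, read 7.31, 7.89 and 7.60 with imiquimod and 7.57, 8.33 and 7.66 with vanillin, so that its groups overlapped. Both receptors for these ligands were higher with vanillin, Cxcr1 by 1.02 ± 0.19 and Cxcr2 by 0.51 ± 0.14. The call for Cxcr2 was lost without vanillin replicate 1 or 2 or imiquimod replicate 1 or 3 (adjusted p up to 0.0802).

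Ccl3 read 7.12, 7.06 and 7.05 on the imiquimod arrays and 9.63, 9.68 and 9.27 on the vanillin arrays, beside 7.41, 6.95 and 6.71 in mock skin. Imiquimod and mock arrays overlapped for this gene, and only the vanillin arrays stood apart, by 2.45 ± 0.18 (adjusted p = 0.000286). Ccl4 rose from 8.64, 8.94 and 8.67 to 10.51, 10.38 and 10.33, by 1.66 ± 0.10, and mock arrays lay lower still at 7.71, 7.78 and 7.73. Their receptor Ccr1 rose by 1.06 ± 0.14. Ccr2, the receptor of Ccl2 on monocytes, rose by 0.95 ± 0.13 on its brighter probe, while its second probe read 0.06 ± 0.12 and was not called.

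Not every chemokine followed. Ccl2, the main monocyte attractant, read 8.23, 8.46 and 8.18 with imiquimod and 6.90, 6.98 and 6.89 with vanillin, and fell by 1.37 ± 0.35 (adjusted p = 0.0159). Cx3cr1, the fractalkine receptor of resident macrophages and some monocytes, fell by 1.74 ± 0.21, and Cxcr6, a receptor of tissue T cells, fell by 0.83 ± 0.16. The CC chemokines had 7 of 16 higher (4 without imiquimod replicate 3) and 2 lower, with a median of 0.29. The eosinophil attractant Ccl11 rose by 0.73 ± 0.11. Chemokine receptors had 6 of 21 higher and 4 lower (2 without imiquimod replicate 1), near the shares of all genes. Among the remaining CXC, CX3C and XC chemokines there were 1 of 10 higher and 1 lower (0 without vanillin replicate 1 or 2 or imiquimod replicate 1, 2 or 3 and 2 without vanillin replicate 3). The member higher was the B cell attractant Cxcl13, at 1.21 ± 0.10. The interferon-induced T cell attractant Cxcl9 read 0.11 ± 0.37 and 0.01 ± 0.14 on its probes, and neither was called. Its relative Cxcl11 read -0.28 ± 0.24 and was not called, except without vanillin replicate 3 (adjusted p down to 0.00383).

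**Figure D1:**
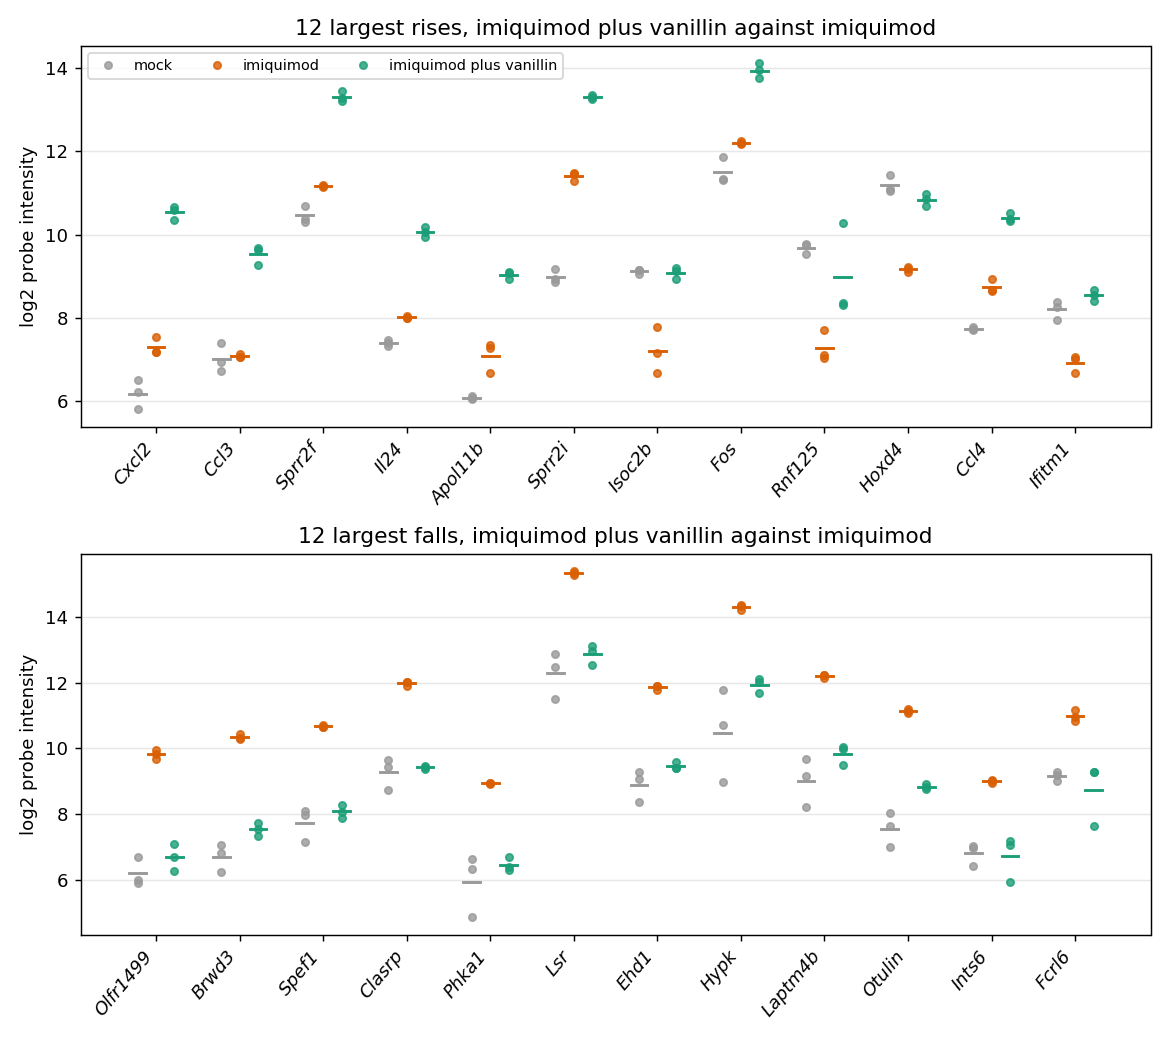
The 12 largest rises (top) and 12 largest falls (bottom) of vanillin against imiquimod by the rule of the text, with log2 probe intensity on the y axis, 1 point per array and a line at each group's mean. Cxcl2, Ccl3 and Il24 show the vanillin arrays above both other groups, and Olfr1499 shows imiquimod arrays near 9.8 and vanillin arrays at 7.10 or lower.

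Il24, a cytokine of the IL-20 subfamily that acts on keratinocytes, showed the clearest separation of its family. It read 8.01, 8.001 and 8.06 with imiquimod, 10.18, 9.94 and 10.07 with vanillin and 7.33, 7.47 and 7.41 in mock skin, and its rise of 2.04 ± 0.09 (adjusted p = 5.98e-05) was 4.12-fold. The other cytokines of this subfamily that act on keratinocytes rose as well, Il20 by 1.17 ± 0.20 and Il19 by 0.99 ± 0.21. Il20ra, a subunit of their shared receptor, rose by 0.76 ± 0.10, while the other subunit, Il20rb, read 0.27 ± 0.12 and was not called, except without vanillin replicate 3 (adjusted p down to 0.038). The receptor chain Il22ra1 read 8.87, 8.92 and 9.03 with imiquimod and 8.26, 8.12 and 8.96 with vanillin. Its groups overlapped, and its change of -0.49 ± 0.20 was not called with all arrays (limma, adjusted p = 0.0735). Il22ra2, a soluble receptor that captures interleukin-22, fell by 0.42 ± 0.08, from 9.99, 10.02 and 9.92 to 9.52, 9.56 and 9.58. The IL-20 and IL-22 family with its receptors had 5 of 10 higher and 2 lower (1 without vanillin replicate 1 or 2 or imiquimod replicate 1, 2 or 3), and a median change of 0.37.

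Genes of the interleukin-6 family changed in both directions. Il6 itself read 6.07, 5.67 and 6.13 with imiquimod, 5.54, 6.29 and 6.17 in mock skin and 6.96, 7.11 and 6.85 with vanillin, a rise of 1.01 ± 0.21 (adjusted p = 0.006) on a dim probe at percentile 12.5. Lif, a relative of Il6, rose by 0.75 ± 0.15, and Osm, oncostatin M, fell by 0.96 ± 0.21 from 12.48, 12.35 and 12.62 to 11.31, 11.17 and 12.07. The signal transducer Stat3 rose by 0.59 ± 0.12, its kinase Jak2 by 0.72 ± 0.09 and its inhibitor Socs3 by 0.51 ± 0.11. Stat3 arrays of the vanillin group, at 10.95, 10.62 and 10.61, lay between the imiquimod level of 10.14 ± 0.07 and the mock level of 11.32 ± 0.15. The kinase gene Jak1 read -0.44 ± 0.13 on its brighter and -0.80 ± 0.15 on its dimmer probe, both called lower, although the first call was lost without vanillin replicate 1 or 2 or imiquimod replicate 1, 2 or 3 (adjusted p up to 0.0739). The list of this family had 6 of 14 higher and 2 lower (1 without vanillin replicate 1 or 2 or imiquimod replicate 1, 2 or 3 and 4 without vanillin replicate 3 or mock replicate 1).

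In the interleukin-1 family Il1b rose by 0.59 ± 0.11, from 11.03, 10.94 and 11.26 to 11.61, 11.58 and 11.81, on top of a mock level of 10.02 ± 0.07. Il33, the alarmin of keratinocytes and endothelium, rose by 0.92 ± 0.15, and Il1f8, which encodes interleukin-36 beta, by 0.74 ± 0.10. Il1f9, which encodes interleukin-36 gamma, went from 14.54, 14.50 and 14.47 to 13.64, 13.83 and 13.80 and fell by 0.75 ± 0.10. Vanillin arrays for Il1f9 still lay far above the mock level of 10.15 ± 0.12. The family had 4 of 15 higher and 2 lower. Among TNF superfamily genes, Tnfsf14 (LIGHT, a T cell costimulator) fell by 1.28 ± 0.10 and Ltb (lymphotoxin beta) fell by 0.73 ± 0.12. Tnfsf10, the death ligand TRAIL, rose by 0.91 ± 0.19. Tnf read 10.06, 9.999 and 10.12 with imiquimod and 9.92, 9.80 and 8.69 with vanillin, where replicate 3 lay well below the other vanillin arrays, and its change of -0.59 ± 0.28 was not called. TNF superfamily ligands and receptors had 6 of 26 higher (2 without vanillin replicate 1 or imiquimod replicate 1, 2 or 3 and 3 without vanillin replicate 2 or mock replicate 2) and 5 lower (3 without imiquimod replicate 1).

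Among subunits and receptors of interleukin-23, Il23a changed most. Il23a, the p19 subunit found only in interleukin-23, read 10.80, 10.37 and 10.80 with imiquimod and 9.06, 9.22 and 9.78 with vanillin, and fell by 1.30 ± 0.20 (adjusted p = 0.00226). Mock arrays read 8.59, 8.87 and 8.68, so the vanillin arrays lay between both other groups. The second subunit, Il12b, read 11.27, 11.27 and 11.27 with imiquimod and 11.22, 11.27 and 11.55 with vanillin, with overlapping groups and a change of 0.08 ± 0.11. The receptor chain Il23r read 12.37, 12.39 and 12.66 with imiquimod and 12.07, 11.88 and 12.76 with vanillin, where replicate 3 stood above the others, and its change of -0.23 ± 0.22 was called only without vanillin replicate 3 (adjusted p down to 0.0234). Ebi3, a subunit of interleukin-27 and interleukin-35, was called higher at 0.30 ± 0.08 and the shared receptor chain Il12rb1 lower at -0.33 ± 0.10, but the first call was lost without imiquimod replicate 1 or 3 (adjusted p up to 0.0807) and the second without vanillin replicate 1 or 2 or imiquimod replicate 2 or 3 (adjusted p up to 0.116). The list had 1 of 8 higher (0 without imiquimod replicate 1 or 3) and 2 lower (1 without vanillin replicate 1 or 2 or imiquimod replicate 2 or 3 and 5 without vanillin replicate 3).

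Among the interleukin-17 cytokines, Il17a read 7.45, 7.76 and 7.66 with imiquimod and 7.71, 7.24 and 6.88 with vanillin, and Il17f read 8.63, 7.92 and 8.46 with imiquimod and 8.39, 8.50 and 8.05 with vanillin. Neither was called (adjusted p = 0.171 and 0.936), both probes were below the median intensity, and for both the groups overlapped. Il17a was called lower without vanillin replicate 1 (adjusted p down to 0.0228). Il17a did not stand above mock on the imiquimod arrays either, since mock read 7.75, 7.71 and 7.69. Il17c, an epithelial relative, had a brighter probe at -0.28 ± 0.25, not called except without imiquimod replicate 2 (adjusted p down to 0.0487), and a dimmer probe at 0.70 ± 0.13, called higher. The receptor chain Il17re was also called on its dimmer probe alone, with -0.11 ± 0.11 and 0.63 ± 0.10 on its probes, whereas Il17ra read 0.09 ± 0.08 and -0.09 ± 0.16 and was called on neither. Il17rc, another receptor chain, read -0.30 ± 0.22 and was not called with all arrays.

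The adaptors downstream of the receptor moved apart. Traf3ip2 (Act1), which binds the receptor, rose by 0.40 ± 0.08, and Traf6, the ubiquitin ligase it recruits, fell by 0.57 ± 0.11. Il17rd, a receptor-like regulator of the pathway, rose by 0.81 ± 0.16. The cytokines, receptors and adaptors had 3 of 13 higher and 1 lower (2 without vanillin replicate 1 or 3 or imiquimod replicate 2). Genes that interleukin-17 is known to induce in keratinocytes had 7 of 15 higher and 4 lower, with a median change of 0.25. Ccl20, the chemokine for cells with Ccr6, read 11.25, 11.29 and 11.14 with imiquimod and 10.55, 10.44 and 10.41 with vanillin and fell by 0.76 ± 0.10, above mock readings of 9.72, 9.86 and 10.004. The antimicrobial lipocalin Lcn2 rose by 0.61 ± 0.10, the metalloreductase Steap4 by 0.63 ± 0.08 and the psoriasin relative S100a7a by 0.58 ± 0.11. S100a9, a calprotectin subunit, read 16.90, 16.88 and 16.93 with imiquimod and 16.67, 16.71 and 16.83 with vanillin. These arrays did not overlap, but the change of -0.16 ± 0.09 was not called (adjusted p = 0.166). The other subunit, S100a8, read -0.26 ± 0.34 on a dim probe at intensity percentile 17.3 and was not called with all arrays. Its imiquimod mean of 6.78 ± 0.26 lay near the mock mean of 6.84 ± 0.16, whereas S100a9 had a mock mean of 11.37 ± 0.11. Ccr6 itself read -0.04 ± 0.10 and was not called.

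**Figure D2:**
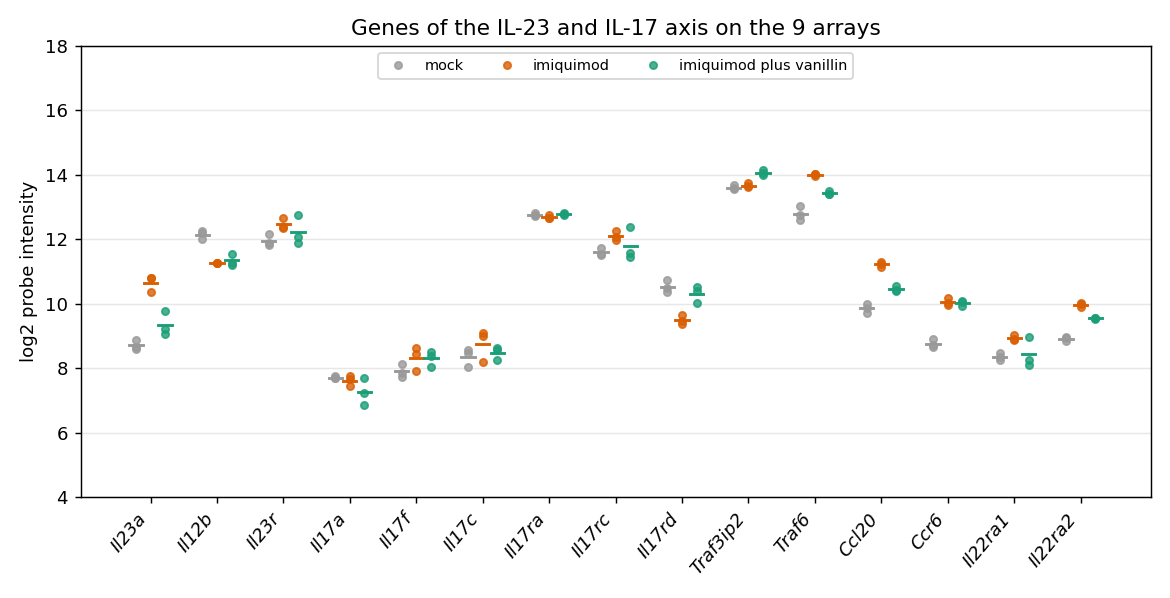
Log2 probe intensity of 15 genes of the interleukin-23 and interleukin-17 axis, 1 point per array and a line at each group mean. Vanillin arrays lay below imiquimod arrays for Il23a, Ccl20, Traf6 and Il22ra2, lay above them for Traf3ip2 and Il17rd, and overlapped them for Il17a, Il17f and Il12b.

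Small proline-rich proteins of the Sprr2 group, which are cross-linked into the cornified envelope, were among the largest rises. The promoters of the most changed pair are shown with the AP-1 letters TGAGTCA in capitals (RefSeq, GRCm38.p6, plus strand, 250 bases before the start).
Sprr2f (chr3:92364937-92365186): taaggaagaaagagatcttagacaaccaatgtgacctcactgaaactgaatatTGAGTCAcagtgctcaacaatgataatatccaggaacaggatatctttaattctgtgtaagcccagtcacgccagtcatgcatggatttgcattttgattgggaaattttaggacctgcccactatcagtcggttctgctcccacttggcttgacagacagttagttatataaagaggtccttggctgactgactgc
Sprr2i (chr3:92407741-92407990): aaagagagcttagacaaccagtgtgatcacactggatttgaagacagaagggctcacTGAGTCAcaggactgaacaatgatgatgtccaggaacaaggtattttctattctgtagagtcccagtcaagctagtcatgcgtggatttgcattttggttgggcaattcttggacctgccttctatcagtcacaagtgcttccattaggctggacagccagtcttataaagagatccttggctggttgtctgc

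The letters lie at bases -197 to -191 in Sprr2f and -193 to -187 in Sprr2i. A match to TGANTCA, searched on both strands, is present in 6.87% of the 27025 promoters. Both genes were chosen for display after their values were seen, and they belong to a cluster of close paralogs whose probes may take up each other's RNA, so the split between members is uncertain.

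Sprr2f read 11.18, 11.15 and 11.20 on the imiquimod arrays and 13.28, 13.45 and 13.20 on the vanillin arrays, beside 10.69, 10.38 and 10.31 in mock skin. Its rise of 2.13 ± 0.12 (adjusted p = 0.000108) stood beside a difference between imiquimod and mock of 0.72, from the same imiquimod arrays. Sprr2i read 11.46, 11.48 and 11.29 with imiquimod and 13.25, 13.30 and 13.35 with vanillin, a rise of 1.89 ± 0.11, from a mock level of 8.99 ± 0.16. Their relatives Sprr2g (0.78 ± 0.08), Sprr2e (0.51 ± 0.10) and Sprr2h (0.44 ± 0.10) rose as well. The other measured members, Sprr2d and Sprr2k, read 0.11 ± 0.08 and -0.27 ± 0.13 and were not called, except Sprr2k without vanillin replicate 3 (adjusted p down to 0.0345). Sprr1a, of another subgroup, fell by 0.97 ± 0.23, from 16.47, 16.41 and 16.42 to 15.27, 15.41 and 15.70.

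Of the 4 measured keratins of thickened epidermis, Krt6b rose by 0.50 ± 0.08, from 16.997, 16.98 and 16.99 to 17.48, 17.48 and 17.53, while mock arrays lay at 9.36 ± 0.06. Krt16 was called at 0.28 ± 0.09, a call lost without vanillin replicate 1, 2 or 3, imiquimod replicate 1, 2 or 3 or mock replicate 2 (adjusted p up to 0.114). Krt6a and Krt17 read -0.06 ± 0.14 and 0.11 ± 0.08 and were not called. These keratins and the small proline-rich proteins together had 7 of 16 higher and 1 lower (2 without vanillin replicate 3 or mock replicate 1). In the late cornified envelope group, Lce3b rose by 1.55 ± 0.10 and Lce3a by 1.02 ± 0.09, without overlap of their arrays (10.48, 10.52 and 10.39 against 12.09, 12.14 and 11.82 for Lce3b). Lce3f, of the same subgroup, fell by 0.82 ± 0.19, and the late cornified envelope genes had 3 of 13 higher and 3 lower. Filaggrin-type proteins and barrier enzymes had 3 of 26 higher and 3 lower, a smaller share on both sides than that of all genes. Of these, Tgm3, a transglutaminase of the envelope, rose by 0.88 ± 0.18 and Casp14, a protease of filaggrin processing, fell by 0.44 ± 0.08. The hornerin gene Hrnr and the filaggrin gene Flg read 0.21 ± 0.14 and 0.20 ± 0.11 and were not called, except Flg without vanillin replicate 1 (adjusted p down to 0.0434).

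Fos, a subunit of the AP-1 factor, rose by 1.74 ± 0.16 (adjusted p = 0.000539), from 12.19, 12.25 and 12.17 to 13.95, 14.12 and 13.76, and mock arrays read 11.86, 11.35 and 11.31. Dusp1, a phosphatase that switches off MAP kinases, rose by 0.92 ± 0.10, the orphan receptor Nr4a1 by 0.90 ± 0.11 and the activity-induced Arc by 0.81 ± 0.10. Immediate early and AP-1 genes as a list had 10 of 38 higher and 9 lower (3 without imiquimod replicate 1 or 3, 4 without imiquimod replicate 2 and 5 without vanillin replicate 1 or 2), with a median of 0.03. The zinc finger factor Egr4 fell by 1.05 ± 0.14, and the phosphatase genes Dusp6 and Dusp5 changed by -0.56 ± 0.11 and -0.64 ± 0.16, both called. Egr1 and Jun read -0.17 ± 0.07 and 0.01 ± 0.09 and were not called. Ptgs2, the inducible cyclooxygenase, rose by 0.61 ± 0.12, the prostaglandin E synthase Ptges by 0.60 ± 0.13 and the receptor Ptger3 by 0.90 ± 0.15, while the constitutive cyclooxygenase Ptgs1 fell by 0.45 ± 0.09. Prostaglandin and leukotriene genes had 9 of 20 higher and 4 lower.

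Matrix-degrading enzymes had one of the highest median changes of any list, at 0.48, with 12 of 23 higher and 3 lower (1 without imiquimod replicate 3). Mmp10, stromelysin 2 of migrating keratinocytes, read 5.83, 5.82 and 5.79 with imiquimod, 8.72, 8.48 and 8.14 with vanillin and 5.58, 5.38 and 5.02 in mock skin, a rise of 2.63 ± 0.17. Its imiquimod mean lay below the 10th percentile of all probe means, 6.06, which kept it out of the 12 rises of the plot. Mmp13, a collagenase, rose by 1.37 ± 0.14, from 10.59, 10.62 and 10.73 to 12.07, 11.81 and 12.17. Plaur, the urokinase receptor, rose by 1.38 ± 0.12 and Mmp9, the gelatinase of neutrophils and keratinocytes, by 0.75 ± 0.10. Of the inhibitors, Timp1 and Timp4 rose by 0.48 ± 0.09 and 1.05 ± 0.17. Timp3 and Timp2 were called lower at -0.61 ± 0.16 and -0.53 ± 0.17. The Timp3 call was lost without vanillin replicate 2 or imiquimod replicate 3 (adjusted p up to 0.0569), and the Timp2 call without vanillin replicate 1 or 3 or imiquimod replicate 1, 2 or 3 (adjusted p up to 0.122). Collagens and dermal matrix had 9 of 26 higher and 3 lower. Among those higher were Loxl2, a collagen cross-linking enzyme, at 0.86 ± 0.19 and 0.37 ± 0.13 on its probes, both called, Col3a1 at 0.74 ± 0.12, Col12a1 at 0.61 ± 0.11 and tenascin Tnc at 0.59 ± 0.09. Fibrillin Fbn1 fell by 0.64 ± 0.10 and Col1a1 fell by 0.38 ± 0.09.

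A further 5 genes of the 12 largest rises came from other functions. Apol11b, an apolipoprotein L gene, read 7.28, 6.67 and 7.35 with imiquimod and 9.08, 9.10 and 8.94 with vanillin, and rose by 1.94 ± 0.17. Isoc2b, which encodes an isochorismatase domain protein, read 9.16, 9.14 and 9.05 in mock, 7.15, 7.77 and 6.68 with imiquimod and 9.20, 9.14 and 8.92 with vanillin, so only the imiquimod arrays stood apart. Hoxd4, a homeobox factor of body patterning, rose by 1.66 ± 0.13 to a vanillin mean of 10.84 ± 0.15 beside 11.20 ± 0.22 in mock skin. Ifitm1, an interferon-induced transmembrane protein, rose by 1.62 ± 0.15, with a vanillin mean of 8.54 ± 0.12 beside 8.20 ± 0.23 in mock. Rnf125, a ubiquitin ligase that limits antiviral signalling, read 8.31, 8.36 and 10.29 with vanillin, so that 1 array stood far above the other vanillin arrays. The adjusted p was 0.0205, and the call was lost without imiquimod replicate 1 or 3 (adjusted p up to 0.0707). It was also lost when the fit held only the 6 arrays of both groups (adjusted p = 0.0522).

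The 12 largest falls came from genes of many functions and belonged to no single list. Mock readings are given beside the others, and the comparison of imiquimod with mock shares the imiquimod arrays with the comparison described here. Olfr1499, an olfactory receptor gene, read 9.83, 9.67 and 9.95 with imiquimod, 6.28, 6.70 and 7.10 with vanillin and 6.01, 6.70 and 5.92 in mock skin, and fell by 3.12 ± 0.25 (adjusted p = 0.000433). Brwd3, a bromodomain protein, fell by 2.81 ± 0.20, from 10.44, 10.31 and 10.29 to 7.33, 7.75 and 7.54. Spef1, a microtubule protein of cilia and flagella, fell by 2.59 ± 0.23, and Clasrp, a protein that binds splicing factors, fell by 2.55 ± 0.20. None of the 12 falls had overlapping groups, because the rule that picked them required this. Phka1, a muscle subunit of phosphorylase kinase, fell by 2.48 ± 0.38. Ehd1, a protein of endocytic recycling, fell by 2.40 ± 0.20, with vanillin arrays at 9.39, 9.58 and 9.40 and mock arrays at 8.37, 9.05 and 9.28.

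Hypk, a chaperone partner of the huntingtin protein, fell by 2.36 ± 0.56 (adjusted p = 0.0113) and its mock arrays ranged widely, at 10.71, 8.98 and 11.76. Laptm4b, a lysosomal membrane protein, fell by 2.36 ± 0.32. Otulin, the deubiquitinase that removes linear ubiquitin chains, read 11.08, 11.15 and 11.19 with imiquimod and 8.82, 8.93 and 8.77 with vanillin, and fell by 2.30 ± 0.22. Ints6, of the integrator complex, fell by 2.26 ± 0.30, and vanillin replicate 3 read lowest of its group (7.07, 7.18 and 5.95). Fcrl6, an Fc receptor-like gene of lymphocytes, likewise had 1 low vanillin array (9.30, 9.29 and 7.63), and its second probe read -0.37 ± 0.35, not called. Lsr, a lipoprotein receptor of tricellular junctions, read 15.28, 15.33 and 15.38 with imiquimod and 12.54, 12.97 and 13.11 with vanillin on its brighter probe, and fell by 2.46 ± 0.31. Its second probe read 10.21, 10.31 and 10.10 with imiquimod and 10.32, 10.30 and 10.11 with vanillin, a difference of 0.04 ± 0.09 that was not called.

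Agreement between probes of the same gene was counted over the 2278 genes with 2 or more probes. In 1111 of them (48.8%) all probes changed in 1 direction, and among the 1970 genes with exactly 2 probes 1031 did so (52.3%). All probes were called higher in 188 genes and all lower in 56, while 212 had probes called in both directions. No probe was called in 699 genes, and the other 1123 had some but not all probes called, in 1 direction. The share of probes called over the table was 41.2%, with 24.3% higher and 17.0% lower, while 1.38% were called and at least 2-fold higher and 3.40% called and at least 2-fold lower. Of 3049 pairs of probes 1599 had changes of the same sign (52.4%). Both probes were called in 597 pairs, in the same direction in 366 and in opposite directions in 231.

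Partner probes of called probes were examined next. Where the brighter probe was called higher, the dimmer one was called higher in 34.2% of 815 pairs, beside 24.8% of the 1689 pairs whose brighter probe was not called. Where the brighter probe was called lower, the dimmer one was called lower in 16.0% of 545 pairs, beside 15.6%. For falls of at least 2-fold by the brighter probe, the partner was lower in 17 of 77 pairs, higher in 13 and not called in 47. For rises of at least 2-fold it was higher in 10 of 26 pairs, lower in 3 and not called in 13. Across the 3049 pairs the changes of both probes had a Pearson correlation of 0.046, which describes pairs that share the same 6 arrays and are not independent replicates.

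Bright pairs were looked at alone, since dim probes carry more noise. In the 279 pairs with both probes above the 75th percentile of intensity, 55.2% had the same sign of change for vanillin against imiquimod, with a correlation of 0.110. The same pairs gave 62.0% and a correlation of 0.647 for imiquimod against mock, and 64.9% and 0.693 for vanillin against mock. These comparisons share arrays with each other. What sets probes of 1 gene apart was not tested.

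**Figure D3:**
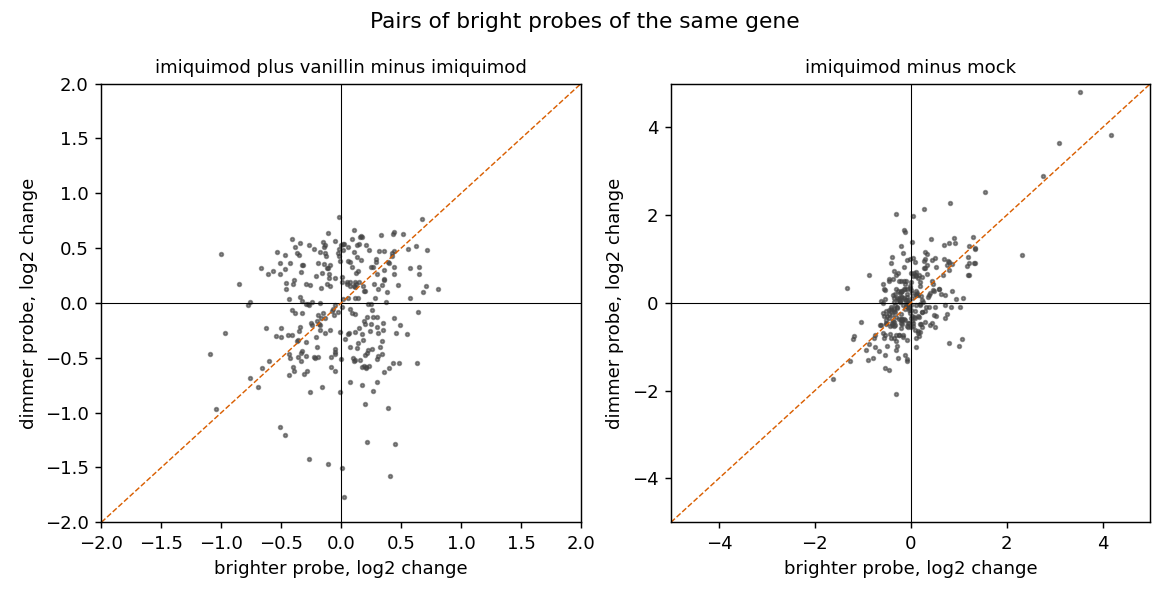
Log2 change of the brighter probe (x axis) and the dimmer probe (y axis) of the same gene, for the 279 pairs with both probes above the 75th percentile of intensity, with a dashed line where both are equal. For vanillin minus imiquimod (left) the points form a round cloud, with a correlation of 0.110, and for imiquimod minus mock (right) they stretch along the line, with 0.647.

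The genes with every probe called higher were picked for that agreement, so it is not separate evidence for them. The 8 with the largest change on their less changed probe were as follows. Lama3, a laminin chain that anchors the epidermis to its basement membrane, rose by 1.08 ± 0.12 on one probe (10.34, 10.51 and 10.32 to 11.52, 11.49 and 11.40) and by 0.96 ± 0.13 on the other (10.10, 10.36 and 9.95 to 11.21, 11.21 and 10.89). Bcl2, an inhibitor of apoptosis, rose by 1.38 ± 0.12 and 0.89 ± 0.13, and its probes read 8.14 ± 0.08 and 8.36 ± 0.09 with imiquimod beside 9.86 ± 0.08 and 9.66 ± 0.13 in mock. Fcer2a, the low-affinity IgE receptor CD23 of B cells, rose by 0.94 ± 0.21 and 1.16 ± 0.18, from 8.03, 8.65 and 8.40 to 9.64, 9.32 and 8.94 on the brighter probe. Eif4a2, a helicase of translation initiation, rose by 1.06 ± 0.15 and 0.88 ± 0.21. Cap2, an actin-binding protein, rose by 0.86 ± 0.09 and 1.21 ± 0.14, and Cdkal1, a tRNA-modifying enzyme, by 0.89 ± 0.15 and 0.96 ± 0.19. The fibrillar collagen Col24a1 rose by 0.98 ± 0.16 and 0.91 ± 0.17 on dim probes, and the deubiquitinase Mindy4 by 1.09 ± 0.28 and 0.80 ± 0.21.

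The 8 genes with the largest falls among those with every probe called lower follow, picked in the same way. Over all pairs, the dimmer probe was called lower in 16.0% where the brighter was called lower. That share was 15.6% where the brighter was not called. Grhl1, a grainyhead-like factor of epidermal differentiation and desmosomes, read 14.25, 14.25 and 14.28 with imiquimod and 13.32, 13.84 and 13.54 with vanillin on one probe, and 14.07, 14.11 and 14.13 against 13.29, 13.35 and 13.35 on the other. The changes were -0.69 ± 0.13 and -0.77 ± 0.12, and mock means lay lower still, at 12.92 ± 0.09 and 12.86 ± 0.26. Ing1, a chromatin-binding growth inhibitor, changed by -0.76 ± 0.13 and -0.69 ± 0.13, and Atg4d, a protease of autophagy, changed by -0.68 ± 0.17 and -0.93 ± 0.25. Brsk1, a kinase of the AMPK-related family, changed by -1.25 ± 0.16 and -0.82 ± 0.16, the latter on a very dim probe at intensity percentile 1.72. Cdk5r2, an activator of the kinase Cdk5, changed by -0.77 ± 0.12 and -1.03 ± 0.15. Lrriq1 (-1.33 ± 0.24 and -0.99 ± 0.16), the gametogenetin gene Ggn (-0.87 ± 0.22 and -0.69 ± 0.16) and Ceacam15 (-0.77 ± 0.21 and -1.98 ± 0.17) completed the 8 falls.

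Probes of other genes were called in opposite directions. For Ost4, a subunit of the oligosaccharyltransferase, the brightest probe rose by 0.37 ± 0.07, the next fell by 2.30 ± 0.22 and the dimmest read -0.10 ± 0.17. The falling probe read 11.78, 11.89 and 11.88 with imiquimod, 9.44, 9.74 and 9.49 with vanillin and 9.11, 9.67 and 10.10 in mock skin. Gabbr1, a GABA-B receptor subunit, fell by 2.02 ± 0.31 on one probe and rose by 0.83 ± 0.10 on another of similar mean brightness. Lrrfip1, a sensor and regulator of transcription, rose by 0.83 ± 0.17 and fell by 1.56 ± 0.22. Tpmt, a thiopurine-metabolizing enzyme, gave 0.75 ± 0.18 and -1.54 ± 0.22, both called. Med12l, a mediator subunit of transcription, went from 13.42 ± 0.22 to 12.42 ± 0.77 on its brighter probe, called lower, and rose by 1.43 ± 0.32 on the dimmer. The 4 probes of Aifm2, an oxidoreductase that protects against ferroptosis, gave 0.81 ± 0.12, -0.28 ± 0.12, 0.41 ± 0.14 and -1.63 ± 0.15. The last of these probes was dim, at intensity percentile 6.57.

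T cell genes had a median change of -0.29, the lowest of the 55 gene lists, with 8 of 18 lower (5 without imiquimod replicate 1 or 2) and 4 higher (2 without vanillin replicate 1 or imiquimod replicate 1 or 3). Il2ra, the interleukin-2 receptor chain of activated and regulatory T cells, read 10.67, 10.54 and 10.90 with imiquimod and 9.11, 9.28 and 9.97 with vanillin, a change of -1.25 ± 0.23 (adjusted p = 0.00415). Foxp3, the factor of regulatory T cells, fell by 1.07 ± 0.17, from 10.62, 10.24 and 10.62 to 9.20, 9.28 and 9.80, and the costimulatory receptor Cd28 fell by 1.12 ± 0.18. Cd5, a damping coreceptor of T cells, rose by 0.82 ± 0.15. Cd8a fell by 0.96 ± 0.20 on its brighter probe, whereas the dimmer one read -0.41 ± 0.19 and was not called. Genes of the T cell receptor complex did not move as one, since Cd3g was called lower at -0.40 ± 0.11, Cd3d read -0.16 ± 0.10, not called, Cd3e was called higher at 0.27 ± 0.08 and Cd247 rose by 0.91 ± 0.19. The Cd3g call was lost without vanillin replicate 2 or imiquimod replicate 1 or 2 (adjusted p up to 0.0556), and the Cd3e call without vanillin replicate 1 or imiquimod replicate 1 or 3 (adjusted p up to 0.0873). The summed intensity of the list ran from 55882 to 58404 on the imiquimod arrays, from 52772 to 54306 on the vanillin arrays and from 47092 to 49952 on the mock arrays.

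Neutrophil genes had 10 of 21 higher and 2 lower (1 without vanillin replicate 1 or imiquimod replicate 3 and 4 without vanillin replicate 3), with a median of 0.24, beside the rises of their attractants. Csf3r, the receptor for Csf3, rose by 1.25 ± 0.16, from 7.84, 8.05 and 7.88 to 9.14, 9.39 and 8.98. Trem1, an amplifier of myeloid activation, rose by 0.86 ± 0.08 and the resistin-like gene Retnlg by 1.20 ± 0.12. The granule enzyme genes Mpo and Elane read 0.24 ± 0.15 and 0.17 ± 0.39 and were not called. The inhibitory receptor Cd300lf fell by 1.36 ± 0.29. Summed intensity of the neutrophil list ran from 139243 to 143560 with imiquimod, from 124165 to 137481 with vanillin and from 17404 to 18795 in mock skin. Such a sum mostly follows the brightest probe, S100a9, at 16.90 ± 0.03 with imiquimod and 16.74 ± 0.08 with vanillin, a change not called. It therefore does not describe the other members, of which more were called higher than lower. Fewer cells and less RNA per cell cannot be told apart here, and the part of neutrophil RNA in the chemokine results was not tested.

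Among macrophage genes, Fcgr1, the high-affinity IgG receptor, rose by 1.24 ± 0.17 and the beta-glucan receptor Clec7a by 1.06 ± 0.20, while Adgre1 (F4/80), the marker of resident macrophages, read -0.11 ± 0.09 and was not called. Monocyte and macrophage genes had 4 of 16 higher (2 without vanillin replicate 1 or 2, imiquimod replicate 1, 2 or 3 or mock replicate 2) and 3 lower (1 without imiquimod replicate 1). Both counts were near the shares of all genes. The median change of this list was -0.07, with 6 of 16 members above 0, so Fcgr1 and Clec7a do not stand for it. In the dendritic cell and MHC class II list, all 3 probes of Cd74, the invariant chain of MHC class II, were called lower, at -1.04 ± 0.13, -0.97 ± 0.14 and -0.42 ± 0.08. The brightest read 14.52, 14.44 and 14.50 with imiquimod, 13.47, 13.37 and 13.48 with vanillin and 13.88, 14.27 and 14.39 in mock, so vanillin arrays lay below both other groups. Itgax (CD11c) rose by 0.67 ± 0.15 and the costimulator Cd86 by 0.38 ± 0.09. H2-Aa, a class II chain, was called lower at -0.30 ± 0.09, a call lost without vanillin replicate 1 or 2 or imiquimod replicate 1 or 2 (adjusted p up to 0.0978). The list had 5 of 13 higher (2 without vanillin replicate 1 or 2 and 3 without imiquimod replicate 1, 2 or 3) and 3 lower (1 without vanillin replicate 1 or 2 or imiquimod replicate 1 or 2).

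Interferon-stimulated genes had 17 of 30 higher and 2 lower (1 without imiquimod replicate 1, 2 or 3 or mock replicate 2 or 3), with a median of 0.39. Ddx58, which encodes the RNA sensor RIG-I, read 7.71, 7.54 and 7.72 with imiquimod, 8.96, 9.03 and 8.54 with vanillin and 9.60, 9.28 and 9.19 in mock, a rise of 1.18 ± 0.16. The related sensor Ifih1 rose by 0.70 ± 0.09. Gbp3, a guanylate-binding protein of host defence, rose by 0.64 ± 0.09, and Ifi27l2a, an interferon-induced membrane protein, by 1.29 ± 0.12. Xaf1, an apoptosis factor induced by interferon, fell by 1.92 ± 0.38, from 10.50, 10.80 and 10.67 to 9.27, 9.23 and 7.70. Isg15, a ubiquitin-like protein, rose by 0.50 ± 0.08 and Irf7, the factor that drives interferon genes, by 0.71 ± 0.12. Of the toll-like receptors, Tlr7, the target of imiquimod, read 8.53, 8.59 and 8.44 with imiquimod and 8.58, 8.64 and 8.59 with vanillin, a difference of 0.08 ± 0.10 that was not called. Tlr6 rose by 0.83 ± 0.11 and the coreceptor Cd14 by 0.94 ± 0.12, and the adaptor Tirap fell by 0.79 ± 0.12 on its brighter probe and rose by 0.41 ± 0.13 on the dimmer. Toll-like receptors and adaptors had 7 of 20 higher and 4 lower. Complement genes had 7 of 16 higher and 0 lower (3 at an unadjusted p under 0.05, 2 without vanillin replicate 3), among them the inhibitor Serping1 at 0.78 ± 0.12 and the decay factor Cd55 at 0.81 ± 0.14.

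Skeletal muscle genes had the highest share of members called higher of the 55 gene lists, with 15 of 20 higher and 1 lower (0 without vanillin replicate 1 or 2, imiquimod replicate 1, 2 or 3 or mock replicate 2 or 3 and 2 without vanillin replicate 3) and a median of 0.47. The summed intensity of these probes ran from 486830 to 494046 on the imiquimod arrays, from 623043 to 647061 on the vanillin arrays and from 609824 to 650866 on the mock arrays, so the vanillin arrays lay within the range of the mock arrays and above imiquimod. Actn3, an actinin of fast fibres, rose by 0.86 ± 0.10, the giant filament gene Neb by 0.82 ± 0.11 and the calcium channel gene Cacna1s by 0.94 ± 0.11. Slow-fibre Tnni1 was the member called lower, at -0.42 ± 0.15, a call lost without vanillin replicate 1 or 2, imiquimod replicate 1, 2 or 3 or mock replicate 2 or 3 (adjusted p up to 0.158).

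Genes of other tissue components were called higher beside the muscle genes. Adipocyte genes had 9 of 19 higher and 1 lower (0 without vanillin replicate 1 or 2 or imiquimod replicate 1 or 3 and 2 without vanillin replicate 3), led by the hormones Adipoq (0.81 ± 0.10) and Lep (0.83 ± 0.14). Endothelial genes had 8 of 17 higher and 0 lower (0 at an unadjusted p under 0.05, 1 without vanillin replicate 3), with the clotting factor gene Vwf at 0.68 ± 0.10 and the junction cadherin Cdh5 at 0.56 ± 0.09. Smooth muscle and pericyte genes had 6 of 9 higher (3 without vanillin replicate 1 or imiquimod replicate 1 or 3) and 1 lower. Hair follicle stem cell genes had 7 of 14 higher and 2 lower (0 without vanillin replicate 2 or imiquimod replicate 1, 2 or 3 and 1 without vanillin replicate 1 or mock replicate 2), with Lgr5 at 0.68 ± 0.10. Summed adipocyte intensity ran from 493245 to 498377 with imiquimod and from 528819 to 580316 with vanillin, and endothelial intensity from 32399 to 33090 with imiquimod and from 39233 to 40305 with vanillin. The share of each tissue in the samples was not measured, and its part in the other results was not tested. Of the red blood cell genes, Alas2, which starts heme synthesis, rose by 1.27 ± 0.15, and the list had 2 of 3 higher and 0 lower (1 at an unadjusted p under 0.05, 1 without mock replicate 1 or 3).

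Markers of nerve and pigment cells split. Mbp, a myelin protein, rose by 0.95 ± 0.12 on its brighter probe and read -0.19 ± 0.21, not called, on the dimmer. Uchl1, a neuronal ubiquitin hydrolase, fell by 2.07 ± 0.30, from 10.84, 10.73 and 10.96 to 8.90, 9.37 and 8.05. Of the melanocyte list, the endothelin receptor gene Ednrb fell by 1.33 ± 0.21 and the melanosome gene Oca2 rose by 0.55 ± 0.09, in bulk RNA. Schwann cell and nerve genes had 2 of 14 higher (1 without vanillin replicate 1 or imiquimod replicate 1, 2 or 3) and 2 lower (1 without vanillin replicate 1 or 2 or imiquimod replicate 1 or 3), and melanocyte genes 5 of 11 higher (3 without vanillin replicate 1 or 2 or imiquimod replicate 1, 2 or 3) and 3 lower. Hair shaft keratins had 2 of 24 higher (6 without mock replicate 1) and 4 lower, with Krt84 at -1.78 ± 0.15 and Krt28 at -0.91 ± 0.15.

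**Figure D4:**
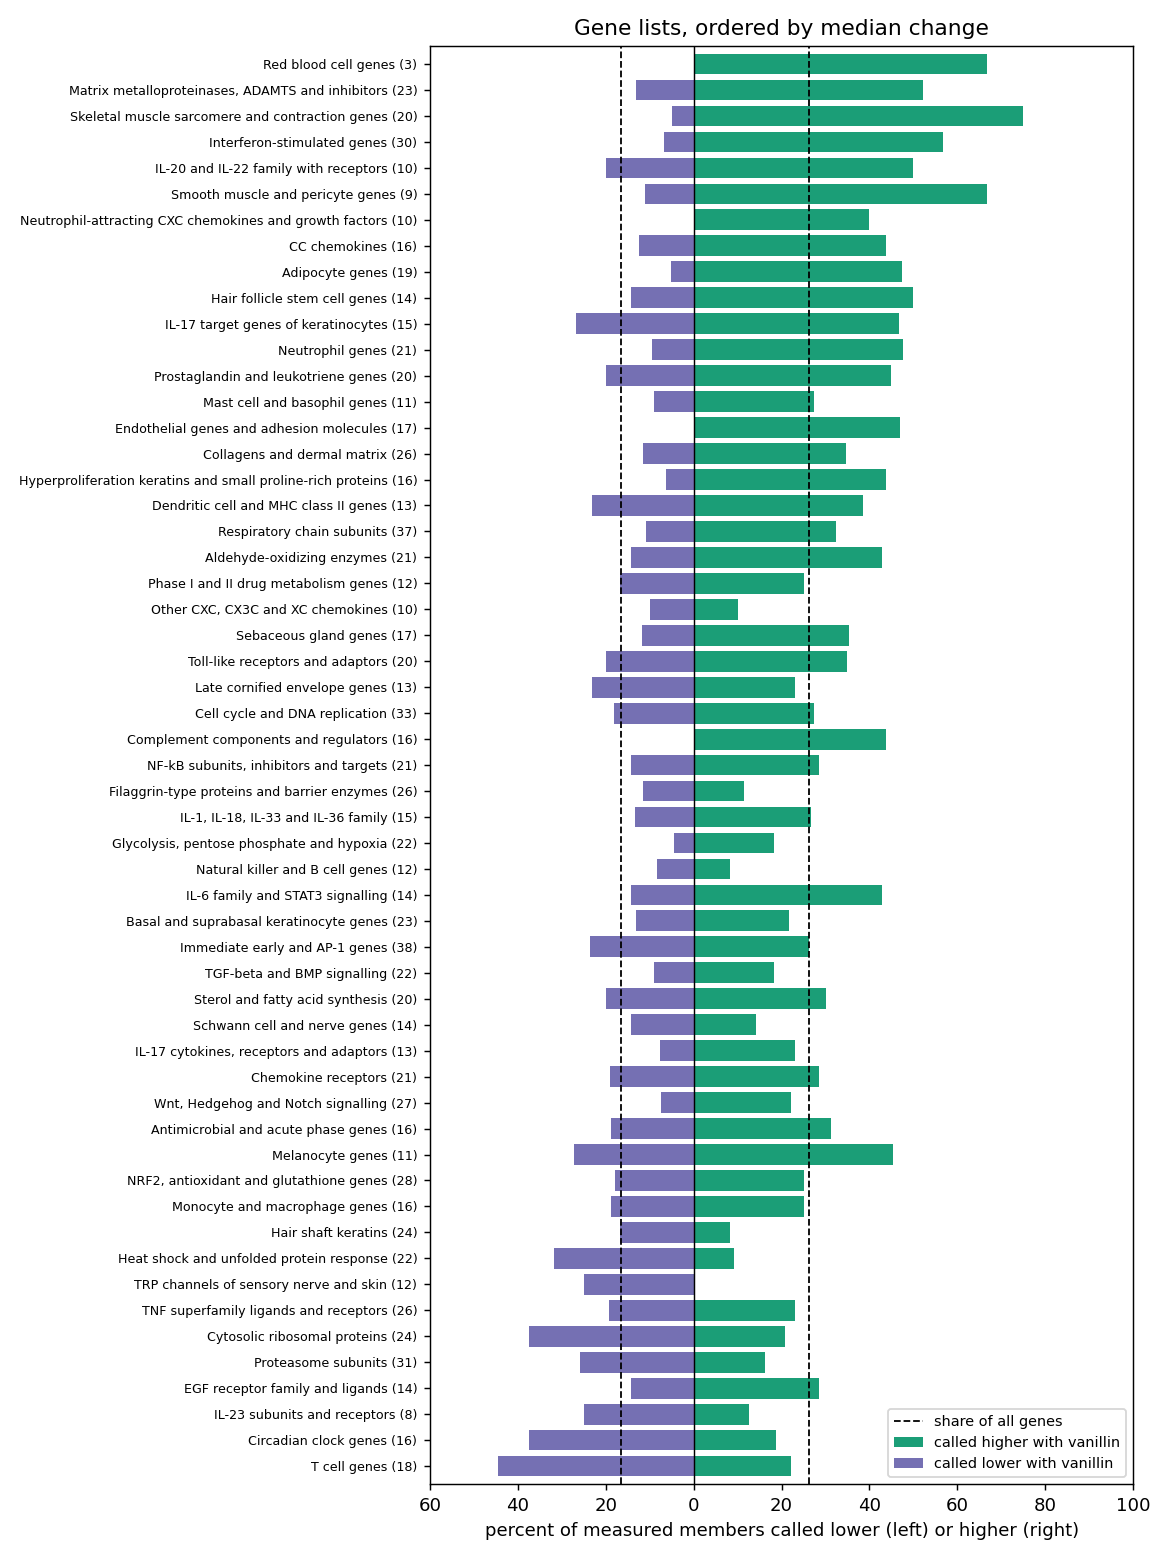
Percent of measured members called lower (left, violet) and higher (right, green) with vanillin in 55 gene lists, ordered by median change, with the number measured in brackets and dashed lines at the shares of all genes, 16.6% and 26.2%. T cell genes stand at the bottom and matrix metalloproteinases, skeletal muscle and interferon-stimulated genes near the top.

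Sensors and enzymes tied to vanillin itself were examined by name. Trpv1, the capsaicin receptor of sensory nerves, read 5.51, 5.82 and 5.69 with imiquimod and 5.64, 5.76 and 5.45 with vanillin on a probe at percentile 8.94, and was not called (-0.05 ± 0.12). Trpv3, a warmth sensor of keratinocytes that vanilloids can open, read 7.93, 7.03 and 7.76 with vanillin, a wide spread around 7.13 ± 0.05 with imiquimod, and was called higher only without vanillin replicate 2 (adjusted p down to 0.00591). Trpa1, the irritant receptor, fell by 0.61 ± 0.13, from 7.87, 8.04 and 8.08 to 7.28, 7.19 and 7.68. Trpc1, a cation channel of many cells, fell by 1.66 ± 0.14, and the channel and kinase Trpm7 fell by 0.63 ± 0.14. The TRP channels had 0 of 12 higher (0 at an unadjusted p under 0.05, 1 without vanillin replicate 2 or imiquimod replicate 2) and 3 lower by limma.

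Aox1, an aldehyde oxidase, rose by 0.52 ± 0.09, from 9.99, 10.02 and 10.02 to 10.49, 10.42 and 10.69, and vanillin arrays lay near mock (10.63, 10.50 and 10.56). Aldh2, the mitochondrial dehydrogenase, read 0.15 ± 0.07 and was not called. Aldehyde-oxidizing enzymes had 9 of 21 higher and 3 lower (5 without mock replicate 1). Aldh1a1, which makes retinoic acid, rose by 0.63 ± 0.11 and the lysine-degrading Aldh7a1 by 0.71 ± 0.10, the latter with a dim second probe at 0.09 ± 0.09, not called. Aldh4a1, of proline breakdown, fell by 2.25 ± 0.21, from 11.86, 11.65 and 11.95 to 9.42, 9.55 and 9.74, above mock arrays at 8.51, 9.20 and 9.37. Aldh3a1, an aldehyde scavenger of epithelia, fell by 0.60 ± 0.09.

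The antioxidant regulator Nfe2l2 (NRF2) read -0.20 ± 0.09 and its classical target Nqo1 -0.06 ± 0.09, neither called, except Nfe2l2 without mock replicate 1 (adjusted p down to 0.0372). Hmox1, heme oxygenase 1, was called at 0.46 ± 0.16 (adjusted p = 0.0499), a call lost with median centring and without vanillin replicate 1 or 2, imiquimod replicate 1, 2 or 3 or mock replicate 2 (adjusted p up to 0.14). Antioxidant genes had 7 of 28 higher (4 without vanillin replicate 2 or imiquimod replicate 1 or 3) and 5 lower (2 without imiquimod replicate 1 or 3, 3 without vanillin replicate 1 or 2 or imiquimod replicate 2 and 9 without mock replicate 1). With all arrays, both counts were near the shares of all genes. The glutathione transferase gene Gsta3 rose by 1.10 ± 0.12 and the peroxidase gene Gpx3 by 0.90 ± 0.11, whereas catalase, Cat, fell by 0.98 ± 0.14. Of the drug-metabolizing enzymes, the epoxide hydrolase genes Ephx1 and Ephx2 rose by 0.59 ± 0.10 and 0.55 ± 0.11, and Fmo1, a flavin monooxygenase, fell by 1.06 ± 0.22. Sult1e1, which sulfonates estrogens and other phenols, fell by 1.19 ± 0.14 on a dim probe at intensity percentile 5.23. The drug metabolism list had 3 of 12 higher and 2 lower.

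Heat shock and unfolded protein genes had 7 of 22 lower and 2 higher, with a median of -0.09. Calr, the chaperone calreticulin, read 13.99, 14.07 and 14.10 with imiquimod, 12.61, 12.46 and 12.78 with vanillin and 11.07, 12.26 and 12.28 in mock, and fell by 1.44 ± 0.29. Hsp90b1 and Hspa5, chaperones of the same compartment, the endoplasmic reticulum, changed by -0.79 ± 0.13 and -0.59 ± 0.13, and Herpud1, of protein degradation there, fell by 0.58 ± 0.10. Xbp1, a transcription factor of this response, rose by 0.46 ± 0.11. Cytosolic ribosomal proteins had 9 of 24 lower and 5 higher (2 without imiquimod replicate 3 and 3 without vanillin replicate 1 or imiquimod replicate 1 or 2). The stalk protein gene Rplp0 fell by 0.74 ± 0.12, while Rps7 rose by 0.56 ± 0.14 on its brighter probe, with 0.19 ± 0.17 on the dimmer. Proteasome subunits had 8 of 31 lower (3 without imiquimod replicate 1, 2 or 3 and 4 without vanillin replicate 1) and 5 higher (3 without vanillin replicate 2 or imiquimod replicate 1 or 3), with Psmc5 at -0.71 ± 0.09 and Psmd7 at 0.64 ± 0.14. Respiratory chain subunits had 12 of 37 higher (2 without imiquimod replicate 1, 4 without vanillin replicate 1 or imiquimod replicate 3 and 6 without vanillin replicate 2 or imiquimod replicate 2) and 4 lower (1 without imiquimod replicate 1 and 2 without vanillin replicate 2 or imiquimod replicate 2 or 3), and of these Ndufb9 fell by 0.67 ± 0.10 and Sdhc rose by 0.62 ± 0.11. Glycolysis and hypoxia genes had 4 of 22 higher (2 without vanillin replicate 2 or imiquimod replicate 1, 2 or 3) and 1 lower (2 without vanillin replicate 3), with the muscle phosphofructokinase gene Pfkm at 0.83 ± 0.14. Sterol and fatty acid synthesis genes had 6 of 20 higher and 4 lower (2 without vanillin replicate 1, imiquimod replicate 1, 2 or 3 or mock replicate 2), with the cholesterol enzymes Nsdhl at 1.05 ± 0.11 and Sqle at -0.47 ± 0.08.

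**Figure D5:**
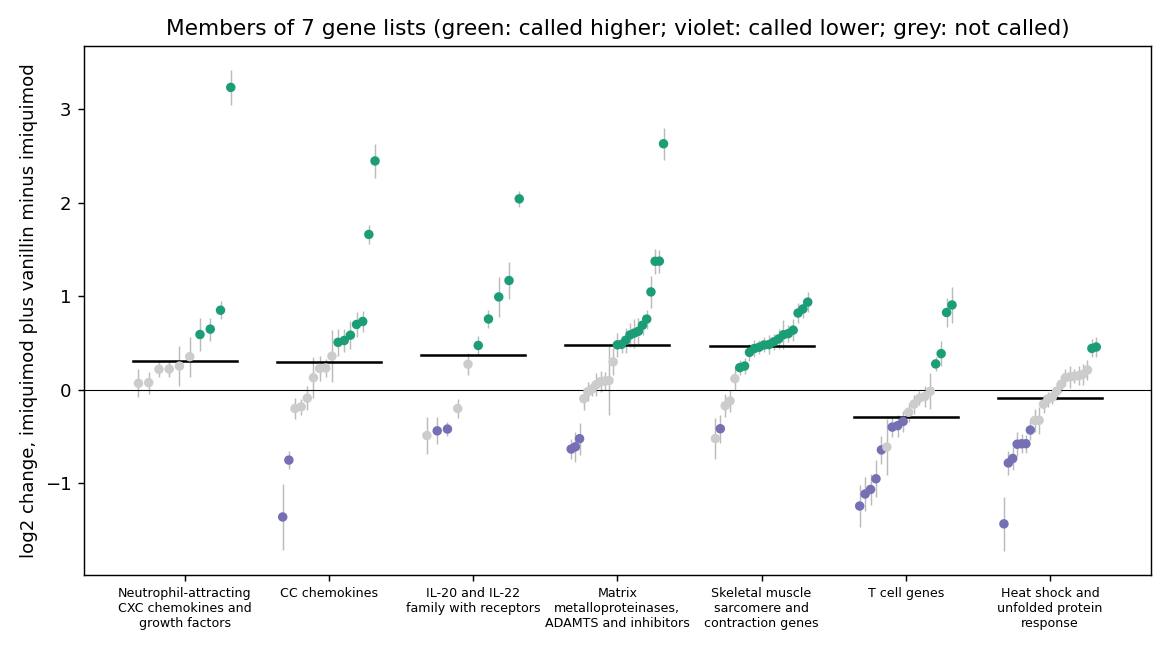
Log2 change of vanillin minus imiquimod for each measured member of 7 gene lists, with bars for the standard error, black lines at the list medians, and green, violet and grey points for members called higher, called lower and not called. Single members, such as Cxcl2, Ccl3, Il24 and Mmp10, stand far above their list medians, whereas 15 of the 20 muscle genes are called higher and none stands above 1.

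The remaining signalling genes showed single changes. Ereg, the growth factor epiregulin, fell by 1.01 ± 0.11, from 14.74, 14.69 and 14.67 to 13.65, 13.73 and 13.69, and the feedback inhibitor of its receptor, Errfi1, fell by 0.98 ± 0.22, while Epgn, epigen, rose by 0.70 ± 0.12. Bmp4 fell by 1.52 ± 0.30 and Bmp6 rose by 1.16 ± 0.16. In the Hedgehog pathway the receptor Ptch1 fell by 0.82 ± 0.13 and the effector Gli1 rose by 0.75 ± 0.12. Of the NF-kB system, the inhibitors Nfkbia and Nfkbid changed by -0.53 ± 0.11 and -0.89 ± 0.16, the adaptor Traf1 rose by 0.88 ± 0.08 and the adhesion molecule Icam1 by 0.75 ± 0.14, while the subunit genes Rela and Nfkb1 read 0.27 ± 0.11 and 0.20 ± 0.08 and were not called, except Rela without vanillin replicate 3 (adjusted p down to 0.0261) and Nfkb1 without mock replicate 1 (adjusted p down to 0.0471). The NF-kB list had 6 of 21 higher (28.6%) and 3 lower (14.3%), near the shares of all genes. Clock genes had 6 of 16 lower (1 without vanillin replicate 2 or imiquimod replicate 3 and 2 without vanillin replicate 1 or imiquimod replicate 1 or 2) and 3 higher (1 without vanillin replicate 2 or imiquimod replicate 1 or 3). Ciart, a repressor of the clock, fell by 1.56 ± 0.27 and Per1 rose by 0.60 ± 0.11. Cell cycle genes had 9 of 33 higher (4 without imiquimod replicate 1 and 5 without vanillin replicate 1 or 2 or imiquimod replicate 2 or 3) and 6 lower (3 without vanillin replicate 1 or imiquimod replicate 1 or 3), with the mitotic kinases Aurka and Aurkb at 0.51 ± 0.08 and -1.02 ± 0.19. With all arrays, these cell cycle counts were near the shares of all genes.

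Further epidermal and defence genes are given to complete the skin lists. Of the basal and suprabasal keratinocyte genes, with 5 of 23 higher (2 without imiquimod replicate 1) and 3 lower (1 without vanillin replicate 1 or imiquimod replicate 1, 2 or 3 and 6 without mock replicate 1), the desmosomal cadherin gene Dsc3 rose by 0.56 ± 0.09 on its brighter probe and read 0.69 ± 0.13 on the dimmer, and Pkp3, a plaque protein of desmosomes, fell by 0.59 ± 0.13. Antimicrobial and acute phase genes had 5 of 16 higher and 3 lower (1 without imiquimod replicate 1 or 3 and 5 without vanillin replicate 3), with haptoglobin, Hp, at 0.86 ± 0.09 and the beta-defensin gene Defb4 at -0.44 ± 0.09. The mast cell and basophil list had 3 of 11 higher (1 without imiquimod replicate 1) and 1 lower (0 without imiquimod replicate 1, 2 or 3 and 2 without vanillin replicate 3 or mock replicate 1), and its receptor gene Mrgprb2 rose by 0.63 ± 0.11. Natural killer and B cell genes had 1 of 12 higher (0 without imiquimod replicate 1 or 3) and 1 lower (0 without vanillin replicate 1 or 2 or imiquimod replicate 1, 2 or 3). Sebaceous gland genes had 6 of 17 higher and 2 lower (1 without imiquimod replicate 3), with the wax synthase gene Awat1 at 0.62 ± 0.11. EGF receptor family genes had 4 of 14 higher (2 without vanillin replicate 1 or imiquimod replicate 1, 2 or 3) and 2 lower, Wnt, Hedgehog and Notch genes 6 of 27 higher (3 without vanillin replicate 1 or imiquimod replicate 1, 2 or 3, 10 without vanillin replicate 3 and 11 without mock replicate 1) and 2 lower (1 without vanillin replicate 2 or imiquimod replicate 2 or 3), and TGF-beta and BMP genes 4 of 22 higher and 2 lower.

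Olfactory receptor genes, the family of Olfr1499, were counted by their symbol after the values were seen. They had 121 of 529 lower (72 without imiquimod replicate 3, 77 without imiquimod replicate 1 and 206 without vanillin replicate 3) and 34 higher (8 without imiquimod replicate 3, 15 without imiquimod replicate 1, 19 without imiquimod replicate 2 and 21 without vanillin replicate 1), with a median of -0.20, beside 16.6% lower and 26.2% higher among all genes. Vomeronasal receptor genes had 10 of 46 lower (18 without vanillin replicate 3) and 0 higher (1 at an unadjusted p under 0.05, 1 without vanillin replicate 2 or imiquimod replicate 2 or 3), and zinc finger genes with Zfp symbols 99 of 325 higher (59 without imiquimod replicate 3 and 64 without imiquimod replicate 1) and 45 lower (27 without imiquimod replicate 1, 28 without imiquimod replicate 3 and 29 without imiquimod replicate 2). Olfactory receptor probes were dim, with a median intensity percentile of 20.4.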

How the data were processed

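RNA from the 9 arrays was measured on a one-colour (Cy5) oligonucleotide microarray. Per the labels' protocols, the deposited values are linear probe intensities that the authors equalised between arrays, and the array medians lay between 629 and 631. How far that scaling went is not given in the sources used here. Values under 1 were set to 1 (1 to 3 values an array) and log2 was taken. Of 26423 probes, 20377 had 1 gene symbol in the platform annotation and 6046 had none. Symbols were brought up to date with the RefSeq table, where 18213 probes matched a current symbol, 2126 an older one and 38 neither. The brightest probe by mean over 9 arrays stood for its gene, and probes of a gene were also compared.

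limma 3.58.1 in R 4.3.3 was fitted with lmFit and eBayes to all 26423 probes and 9 arrays, with the contrast of vanillin minus imiquimod and Benjamini-Hochberg adjustment over all probes. A call means an adjusted p under 0.05. The fit was tested on simulated data with 50 changed probes at each size. Of each 50, it called 35 at a log2 change of 1, 25 at -1, 7 at 0.5 and 9 at -0.5. It called 5 of 26223 unchanged probes. Far fewer probes changed there than were called in the data, so these rates do not carry over.

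The members and gene lists were chosen with earlier results of these data known. Named genes are the 12 largest rises and falls with groups that did not overlap and a mean above the 10th percentile in the lower group, the 8 rises and 8 falls whose probes were all called 1 way, the 6 widest disagreements, in each list up to 4 members of lowest p, and fixed genes of the interleukin axis and of vanillin sensing and oxidation. The 12 were taken from called genes. Predicted genes, clone names and microRNAs were passed over in picking the 12, the 8 and the 6, so larger changes among those are not shown. Every other gene named was chosen after its values were seen, and so were the families counted by symbol. Alternatives covered the scaling, dim probes, an offset of 32, the variance model, array weights, the 6 arrays alone, a replicate block, a threshold of 0.01, the mean of a gene's probes and each array left out.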

Additional observations from a re-analysis of the deposited data

How the results depend on the processing

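Counts of calls depended on single arrays and on the threshold more than on scaling. Leaving out 1 array at a time gave 6576 to 12805 probes called, with 3974 to 6991 higher and 2602 to 5888 lower, and 4547 to 8732 genes, with 2849 to 5116 higher and 1698 to 3736 lower. The lowest were without imiquimod replicate 3 (6576 probes, 4547 genes) and without imiquimod replicate 1 (6923 and 4788). Among these fits with 1 array left out, the highest totals were without vanillin replicate 3 (12805 probes, 8732 genes). That array also had the lowest array weight of the 9, at 0.178. Array weights gave the highest counts, 16208 probes (8760 higher, 7448 lower) and 11256 genes (6320 higher, 4936 lower). At a threshold of 0.01, 5457 probes (3344 higher, 2113 lower) and 3791 genes (2407 higher, 1384 lower) were called, with all probes called higher in 58 genes, all lower in 14 and both ways in 49. A replicate block gave 9968 probes (5892 higher, 4076 lower) and 6911 genes (4265 higher, 2646 lower), and same-numbered vanillin and imiquimod arrays had deviations that correlated at -0.03, 0.09 and 0.22, and imiquimod replicates 1 and 2 correlated best with another number (0.0977 and 0.139), so the numbers were not taken to pair the arrays. With the block, the Krt16 call was lost (adjusted p = 0.0736). The cause of these differences was not tested. Of 250 named genes 226 were called, and 204 kept the call in all 9 fits with 1 array left out. No called gene among these changed direction under any alternative run. Most of the 250 were picked for a large change or a low p, so the share that kept the call does not carry over to all genes. Values for dim probes, such as those of Il6, Trpv1 and Mmp10, are limited by low signal.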
